A study of Mus musculus with 8 samples.

Results

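The genes described here are 10 genes of the anterior pituitary: the hormone genes Prl, Gh, Cga, Lhb, Fshb and Tshb, the transcription factor genes Pou1f1, Tbx19 and Pitx1, and the receptor gene Ghrhr. They were matched by Ensembl identifier, and all 10 were found among the 55890 genes of the count table. The genes were chosen by their measured levels in these same pools, in particular the high levels in 1 control pool, so their values are given as a description and support nothing by themselves. Hypothalamic RNA of 16-week-old females had been sequenced in 8 pools of 2 animals each, 4 pools per genotype. POMC-C451Af/f mice carry a conditional mutation of estrogen receptor-α, which inactivates membrane signaling of the receptor where a POMC-Cre transgene is active. The control mice are labelled wildtype, whereas the methods of the study describe them as littermates homozygous for C451Af/f. RNA of 8 animals per genotype was combined in random pairs, so that each value is the mean of 2 animals and differences between animals within a pool are hidden.

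The anterior pituitary lies below the hypothalamus and makes its hormones in separate cell lineages. Lactotrophs make prolactin (Prl), somatotrophs growth hormone (Gh), gonadotrophs the gonadotropins, thyrotrophs thyrotropin, and corticotrophs and melanotrophs the peptides cut from the Pomc product. The gonadotropins and thyrotropin share the α-subunit encoded by Cga and differ in the β-subunits encoded by Lhb, Fshb and Tshb. POU1F1 is needed for lactotrophs, somatotrophs and thyrotrophs, TBX19 for Pomc expression in corticotrophs and melanotrophs, and PITX1 acts in the anterior lobe from early development. The pars tuberalis, a sheet of pituitary cells that adheres to the underside of the hypothalamus, expresses Cga and Tshb. Pomc differs from the other hormone genes in that neurons of the hypothalamus express it as well.

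One library stood apart from the rest. All 10 genes had their highest level in control replicate 1, the pool numbered 2. Prl reached 1013 CPM (counts scaled to library size) in that pool, 32.2-fold above the mean of the other 3 controls, and Gh reached 410 CPM, 31.4-fold above it. Prl and Gh were also raised, to a lesser degree, in POMC-C451Af/f replicates 1 and 4 and in control replicate 2. The other 8 genes did not share this order of the 7 remaining pools. The total estimated count per pool lay between 37841365 and 48942116 in controls and between 36095253 and 40498166 in POMC-C451Af/f mice, and control replicate 1 had a total of 39692314. No other library quality measure of that pool is known beyond the statement that the RNA integrity number was above 8 in all samples. In pooled bulk RNA, more cells of a type and more RNA per cell cannot be told apart.

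Promoter sequences are shown for 3 hormone genes whose levels varied differently between pools. Among the 7 pools other than control replicate 1, the highest level was 20.8 times the lowest for Prl, 2.15 times for Cga and 3 times for Tshb. The sequences are the 240 bases from 250 to 11 bases before the RefSeq start site on GRCm38.p6, in the direction of the gene. They lie at chr13:27057320-27057559 on the plus strand for Prl, chr4:34893529-34893768 on the plus strand for Cga and chr3:102782725-102782964 on the minus strand for Tshb. Capitals mark matches, on either strand, to the letters ATGNATA as bound by POU1F1, TAATCC as bound by PITX1, TGACCTTG as bound by NR5A1, and TATAAA of the TATA box.
Prl: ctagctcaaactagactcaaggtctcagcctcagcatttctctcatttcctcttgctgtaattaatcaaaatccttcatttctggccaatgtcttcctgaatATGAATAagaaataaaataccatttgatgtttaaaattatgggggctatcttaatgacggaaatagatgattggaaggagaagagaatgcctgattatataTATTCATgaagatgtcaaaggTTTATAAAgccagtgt
Cga: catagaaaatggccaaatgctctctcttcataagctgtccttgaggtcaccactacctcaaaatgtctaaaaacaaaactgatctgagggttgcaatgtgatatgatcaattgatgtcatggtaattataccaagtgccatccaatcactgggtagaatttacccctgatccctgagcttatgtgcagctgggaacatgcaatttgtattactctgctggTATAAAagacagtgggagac
Tshb: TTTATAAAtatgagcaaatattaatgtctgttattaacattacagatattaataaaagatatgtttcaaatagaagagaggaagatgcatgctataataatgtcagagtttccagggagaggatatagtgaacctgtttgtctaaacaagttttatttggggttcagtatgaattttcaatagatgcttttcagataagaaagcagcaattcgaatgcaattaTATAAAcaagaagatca
The Prl window held 2 matches to the POU1F1 letters, from 148 to 142 and from 47 to 41 bases before the start, and the Cga and Tshb windows held none. The TATA box letters were found from 24 to 19 bases before the start in Prl, from 30 to 25 in Cga and from 27 to 22 in Tshb. Further matches were found from 26 to 21 bases on the other strand in Prl, and in Tshb from 248 to 243 on the gene strand and from 250 to 245 on the other. Of 32851 mouse promoters with the same window, 7.76% held the POU1F1 letters, 6.05% the PITX letters, 1.3% the NR5A1 letters and 12.1% the TATA box letters. Promoter entries were found for 7 of the 10 genes. The Lhb window held 1 match to the NR5A1 letters and the first of the Pou1f1 windows held 1 match to the POU1F1 letters, which overlapped a TATA box match. A match describes the letters only, and binding was not measured.

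Prl (ENSMUSG00000021342.15, chromosome 13 from 27057570 to 27065205 on GRCm38, plus strand) was measured at 1013, 68.7, 10.7 and 15 CPM in control replicates 1 to 4. In POMC-C451Af/f replicates 1 to 4 it was measured at 163, 16.2, 7.83 and 135 CPM. Control replicate 1 was highest, POMC-C451Af/f replicates 1 and 4 and control replicate 2 followed, and the remaining 4 pools lay within 7.83 to 16.2 CPM, so that the genotypes overlapped. The depth was not limiting, since the lowest pool held 279 counts of Prl and the highest 40845. The group means were 277 ± 491 CPM (SD, n = 4) in controls and 80.5 ± 80.0 CPM (SD, n = 4) in POMC-C451Af/f mice. With the highest pool left out, the other 3 controls had a mean of 31.5 ± 32.3 CPM (SD, n = 3).

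Gh (ENSMUSG00000020713.7, chromosome 11 from 106300271 to 106301865, minus strand) was measured at 410, 23.5, 4.52 and 11.2 CPM in control replicates 1 to 4 and at 52.4, 8.54, 3.87 and 46.6 CPM in POMC-C451Af/f replicates 1 to 4. The 4 highest and the 2 lowest pools came in the same order as for Prl. The genotypes again overlapped, with 112 ± 199 CPM (SD, n = 4) in controls and 27.8 ± 25.2 CPM (SD, n = 4) in POMC-C451Af/f mice. The level of Gh per level of Prl changed little between pools, from 0.321 in POMC-C451Af/f replicate 1 to 0.747 in control replicate 4, whereas Prl itself spanned more than 2 orders of magnitude. Both genes together held 0.145% of all counts in control replicate 1, 0.0216% and 0.0178% in POMC-C451Af/f replicates 1 and 4, and 0.0092% in control replicate 2. In the other 4 pools their share was between 0.00115% and 0.00261%.

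**Figure D1:**
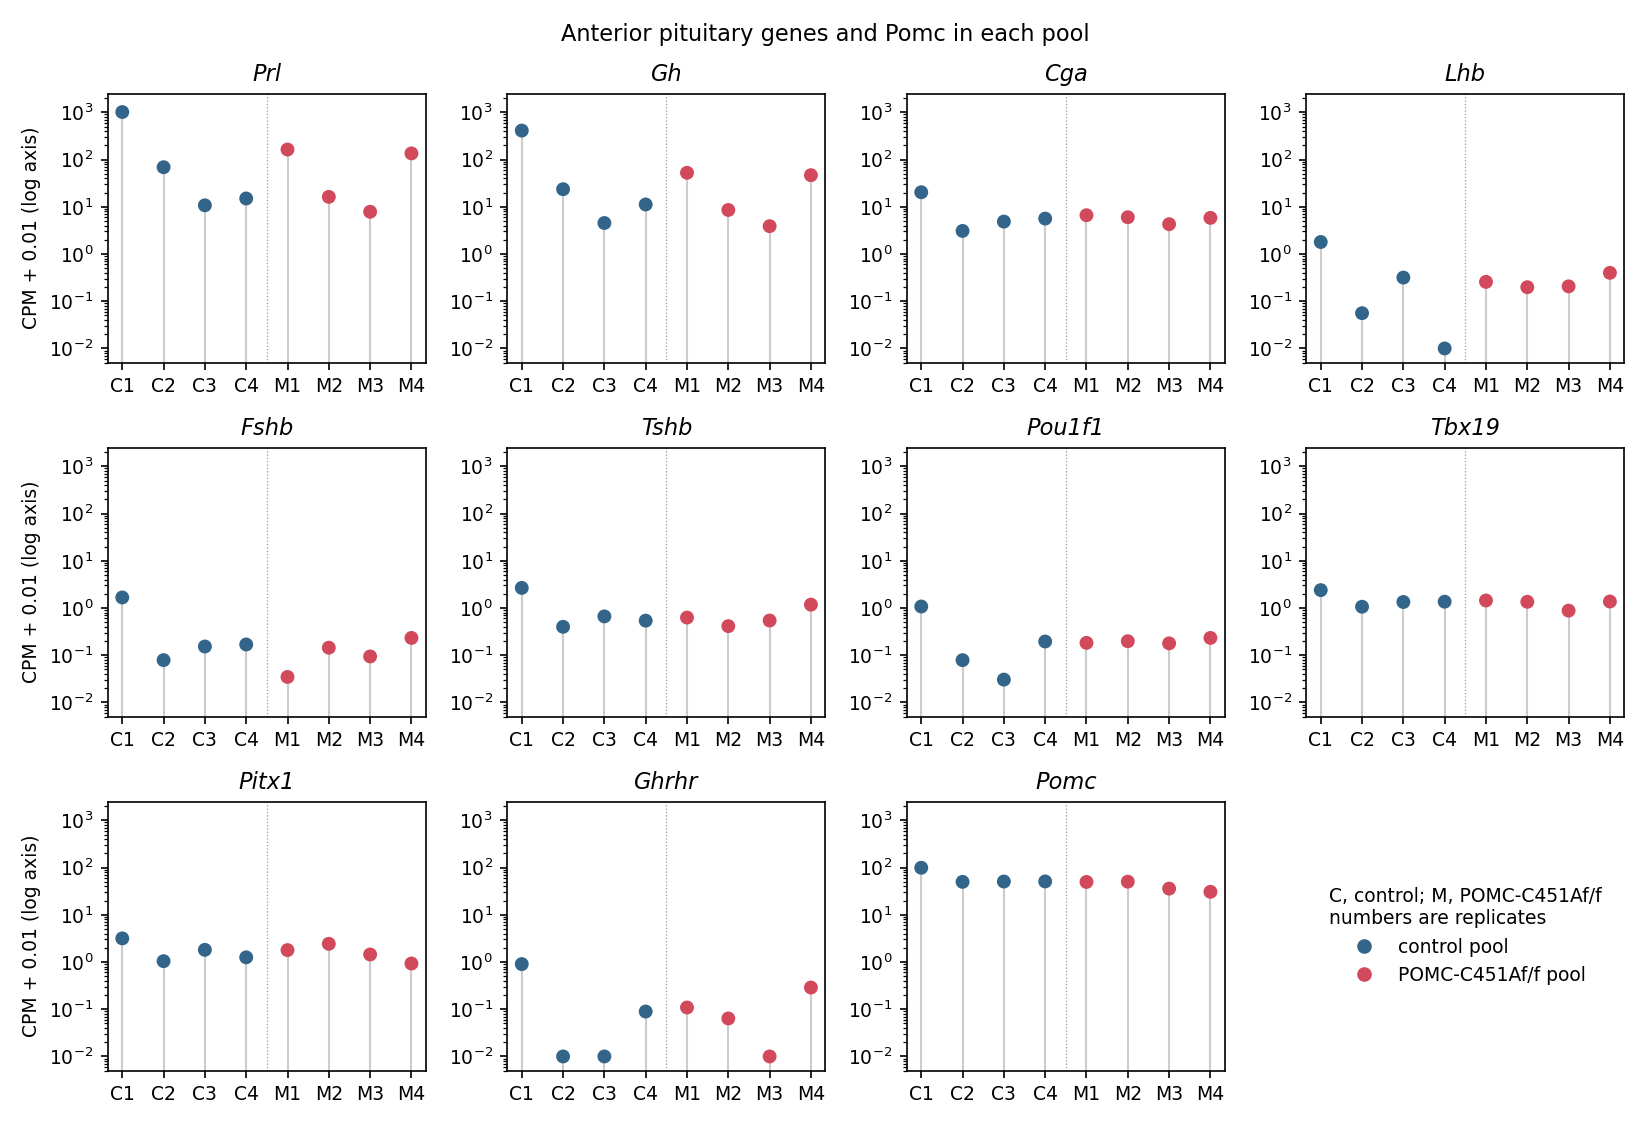
Level of each of the 10 pituitary genes and of Pomc in each pool, as CPM + 0.01 on a log axis, with control pools in blue and POMC-C451Af/f pools in red; each point is 1 pool of 2 animals. Prl spans 7.83 to 1013 CPM over the pools, while Cga stays between 3.07 and 6.61 CPM in the 7 pools other than control replicate 1.

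Ghrhr (ENSMUSG00000004654.7, chromosome 6), the receptor of growth hormone-releasing hormone and a somatotroph gene, gave 36, 0, 0 and 3 counts in control replicates 1 to 4. It gave 4, 2, 0 and 10 counts in POMC-C451Af/f replicates 1 to 4. Only control replicate 1 and, at lower level, POMC-C451Af/f replicates 1 and 4 were above the floor of 3 counts, and 0 counts in control replicate 2 allow a level of up to 0.0687 CPM. Relative to the 3 counts of the other controls together, the rate in control replicate 1 was 38.8-fold higher (95% exact interval of the counting error 12.3 to 197). Intervals and floors of this kind cover counting error only. Pou1f1 (ENSMUSG00000004842.19, chromosome 16) gave 43 counts in control replicate 1 and between 1 and 8 counts in every other pool. Its level of 1.07 CPM in control replicate 1 was 11.7-fold above the mean of the other controls and 4.79-fold above the highest other pool. The 7 remaining pools could not be ordered for Pou1f1 at this depth.

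Cga (ENSMUSG00000028298.11, chromosome 4), the shared α-subunit, was measured at 20.3, 3.07, 4.84 and 5.61 CPM in control replicates 1 to 4. In POMC-C451Af/f replicates 1 to 4 it was measured at 6.61, 5.99, 4.27 and 5.81 CPM. Control replicate 1 was 3.07-fold above the highest other pool, and the other pools did not follow Prl: control replicate 2 had the fourth highest level of Prl and the lowest level of Cga. Cga per 1000 CPM of Prl therefore ranged from 20 in control replicate 1 to 545 in POMC-C451Af/f replicate 3. Tshb (ENSMUSG00000027857.11, chromosome 3), the β-subunit of thyrotropin, gave 2.65, 0.389, 0.654 and 0.529 CPM in control replicates 1 to 4 and 0.617, 0.403, 0.533 and 1.17 CPM in POMC-C451Af/f replicates 1 to 4. Tshb stayed between 6.73% and 20.1% of Cga in all 8 pools and was at 13.1% in control replicate 1. The pars tuberalis expresses the same pair of subunits, and the part of that tissue in the levels of the 7 other pools was not tested.

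The gonadotropin β-subunits were detected in quantity in 1 pool only. Lhb (ENSMUSG00000100916.4, chromosome 7) gave 72, 2, 15 and 0 counts in control replicates 1 to 4 and 10, 7, 7 and 14 counts in POMC-C451Af/f replicates 1 to 4. Fshb (ENSMUSG00000027120.7, chromosome 2) gave 67, 3, 7 and 6 counts in controls and 1, 5, 3 and 8 counts in POMC-C451Af/f mice. Control replicate 1 was 4.59-fold above the highest other pool for Lhb and 7.47-fold above it for Fshb, and 0 counts of Lhb in control replicate 4 allow up to 0.0794 CPM. Gnrhr, the gonadotroph receptor for gonadotropin-releasing hormone, was at 0.298 CPM in control replicate 1 and at most 0.0794 CPM elsewhere. The summed level of the 4 gonadotroph genes, with Cga the most abundant, reached 24.0 CPM in control replicate 1 against 3.21 to 6.96 CPM elsewhere.

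Tbx19 (ENSMUSG00000026572.12, chromosome 1) was measured at 2.38, 1.05, 1.33 and 1.35 CPM in control replicates 1 to 4 and at 1.43, 1.34, 0.870 and 1.36 CPM in POMC-C451Af/f replicates 1 to 4. The factor gene was highest in control replicate 1, by 1.66-fold over the next pool, and the other 7 pools spanned 0.870 to 1.43 CPM. Pomc (ENSMUSG00000020660.7, chromosome 12) was measured at 98.8, 49.7, 50.5 and 50.8 CPM in controls and at 49.5, 50.2, 35.8 and 30.6 CPM in POMC-C451Af/f mice. Control replicate 1 was 1.96-fold above the mean of the other controls, and those 3 lay within 49.7 to 50.8 CPM. Of the other genes of corticotrophs and melanotrophs, Crhr1 was at 11.8 CPM and Pax7 at 1.46 CPM in control replicate 1, within and slightly above the ranges of the other pools. Avpr1b, the pituitary vasopressin receptor, was at or under the floor of 3 counts in every pool. Summed over these 5 genes, the level was 114 CPM in control replicate 1 against 47.2 to 66.4 CPM elsewhere, most of it Pomc.

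Pitx1 (ENSMUSG00000021506.8, chromosome 13) was measured at 3.15, 1.03, 1.80 and 1.24 CPM in control replicates 1 to 4 and at 1.78, 2.42, 1.43 and 0.917 CPM in POMC-C451Af/f replicates 1 to 4. Control replicate 1 was 1.3-fold above the highest other pool, POMC-C451Af/f replicate 2, which was the smallest such ratio of the 10 genes. Against the mean of the other controls the ratio was 2.32-fold, and Tbx19 had the smallest with 1.91-fold. Control replicate 2 and POMC-C451Af/f replicate 4, both with raised Prl, had the lowest measured levels of Pitx1. Their 45 and 33 counts were too near to the 47 of control replicate 4 to be ordered. Among 11 transcription factor genes of pituitary lineages, 9 were highest in control replicate 1, against 16.3% of the 16426 genes that reached 1 CPM in a pool. They include Pou1f1, Tbx19 and Pitx1, which were chosen with their levels in that pool known, so nothing is read from this count. Lhx3 was at 2.01 CPM there and at most 1.11 CPM in the other pools. The most abundant genes of this list, Isl1, Nr5a1 and Gata2, are also active in the brain. Hesx1, which acts in the embryonic pituitary, was at or under the floor in all pools. Of the genes listed for the pars tuberalis, Eya3 was the most abundant with 35.1 CPM in control replicate 1 against 33.7 to 36.7 CPM elsewhere. Mtnr1a, the melatonin receptor gene of that tissue, had 0.521 CPM in control replicate 1, inside the span of 0.278 to 0.666 CPM of the rest. The other genes of this list, Cga, Tshb and Pitx1, were highest in control replicate 1. The list summed to 61.7 CPM there against 41.0 to 44.4 CPM elsewhere. The exons of Cga, Lhb, Pou1f1 and Pitx1 overlap those of an annotated gene on the opposite strand. Whether the counting used strand is not given in the sources used here, so reads of the partners cannot be told apart.

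The amounts of hormone RNA that control replicate 1 held beyond the mean of the other controls were compared per kilobase of exon, which allows genes to be set side by side. Of the summed excess of 7 hormone genes, Prl made up 67.4% and Gh 28.4%. Pomc made up 2.61%, Cga 1.2%, Tshb 0.202%, Lhb 0.151% and Fshb 0.0592%. The lengths are those of the basic annotated exons, and Tshb also has an annotated transcript of 4396 bases with a retained intron, at which length its share would be the smallest. Each of the 7 hormone genes was thus present in excess, and the genes of lactotrophs and somatotrophs made up most of it. These are shares of RNA, and shares of cells were not measured. Neurons of the hypothalamus also express Pomc, and their part in its excess was not tested. All 10 genes were highest in control replicate 1, and 8 of the 10 exceeded the highest other pool by over 2 times. Of the 9 that reached 1 CPM in a pool, 9 were highest in that pool and 7 exceeded the 2 times limit. Across the 16426 genes that reached 1 CPM in a pool, control replicate 1 was the highest of the 8 pools for 16.3% and over 2 times the highest other pool for 0.0731%, which is 12 genes. Since the genes were selected on this contrast, nothing is read from the comparison of these shares.

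The levels of the other genes in the 3 pools with intermediate Prl were set beside the amounts that would come with their Prl at the proportion of control replicate 1. Since control replicate 1 was among the values by which the genes were chosen, this is a description, and whether the pools share a source was not tested. At this proportion, the Prl of POMC-C451Af/f replicate 1 above POMC-C451Af/f replicate 3, the pool with the least Prl, would come with 62.8 CPM of Gh, and the measured difference in Gh was 48.5 CPM. In POMC-C451Af/f replicate 4 the amount was 51.4 CPM and the measured difference 42.7 CPM. In control replicate 2 these were 24.6 and 19.7 CPM. Gh in these pools thus lay somewhat below the proportion of control replicate 1. The amounts are increments above POMC-C451Af/f replicate 3. For the genes that follow, the counts and levels measured are totals, so they cannot be set directly against the amounts. Ghrhr is the exception, with 0 counts in POMC-C451Af/f replicate 3. For Ghrhr, 5.55 counts in POMC-C451Af/f replicate 1 and 4.03 in POMC-C451Af/f replicate 4 would come with Prl, and 4 and 10 were counted, against 0 to 3 in the 4 pools with the least Prl. In CPM these were 0.0987 and 0.278, against 0 to 0.0794. In control replicate 2, where the amount was 2.35 counts, Ghrhr had 0. For Fshb, 9.86 counts would come with Prl in POMC-C451Af/f replicate 1, and 1 was counted. In POMC-C451Af/f replicate 4 the amount for Fshb was 7.16 counts, and 8 were counted. In CPM, Fshb was at 0.0247 and 0.222 in these 2 pools. The first was below and the second above the 0.0842 to 0.159 CPM of the pools with the least Prl. The differences in Fshb from POMC-C451Af/f replicate 3 were -0.0595 and 0.138 CPM, where the amounts were 0.243 and 0.199 CPM. For Lhb, 10.7 and 7.77 counts would come with Prl in the same 2 pools, and 10 and 14 were counted. In CPM, Lhb was at 0.247 and 0.389, the first inside and the second above the 0 to 0.307 CPM of the pools with the least Prl. The differences in Lhb from POMC-C451Af/f replicate 3 were 0.0503 and 0.193 CPM, where the amounts were 0.264 and 0.216 CPM. For Tshb, 9.91 counts would come with Prl in POMC-C451Af/f replicate 4, where 42 were counted, or 1.17 CPM, above the 0.403 to 0.654 CPM of the pools with the least Prl. In POMC-C451Af/f replicate 1 Tshb was inside that range, at 0.617 CPM, and in control replicate 2 just below it, at 0.389 CPM. The differences in Tshb from POMC-C451Af/f replicate 3 were 0.0836 and 0.634 CPM in POMC-C451Af/f replicates 1 and 4. The amounts there were 0.337 and 0.276 CPM. In control replicate 2 the difference was -0.144 CPM and the amount 0.132 CPM. For Cga, 2.49, 2.04 and 0.979 CPM would come with Prl in POMC-C451Af/f replicates 1 and 4 and control replicate 2. There 6.61, 5.81 and 3.07 CPM were measured, against 4.27 to 5.99 CPM in the pools with the least Prl. The differences in Cga from POMC-C451Af/f replicate 3 were 2.35, 1.54 and -1.20 CPM. For Pomc, the amounts of 7.67, 6.27 and 3.01 CPM were small beside the 35.8 to 50.8 CPM of the pools with the least Prl. Pou1f1 was at 0.173 and 0.222 CPM in POMC-C451Af/f replicates 1 and 4, against 0.0204 to 0.188 CPM in the pools with the least Prl. Tbx19 was at 1.43 and 1.36 CPM, against 0.870 to 1.35 CPM. Pitx1 was at 1.78 and 0.917 CPM, against 1.24 to 2.42 CPM. In control replicate 2, Pou1f1 was at 0.0687, Tbx19 at 1.05 and Pitx1 at 1.03 CPM. For Fshb that pool had 3 counts where 4.17 would come with Prl, and for Lhb 2 where 4.52 would. Its Pitx1 and Fshb lay below the ranges of the pools with the least Prl, too near to the lowest to be ordered at these counts. POMC-C451Af/f replicate 4 was thus above the pools with the least Prl for Tshb, and below them for Pomc. For Ghrhr, Lhb, Fshb, Pou1f1 and Tbx19 its values were too near to the highest of those pools to be ordered at these counts. For Pitx1 its 33 counts were likewise too near to the 47 of control replicate 4, the lowest of those pools.

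**Figure D2:**
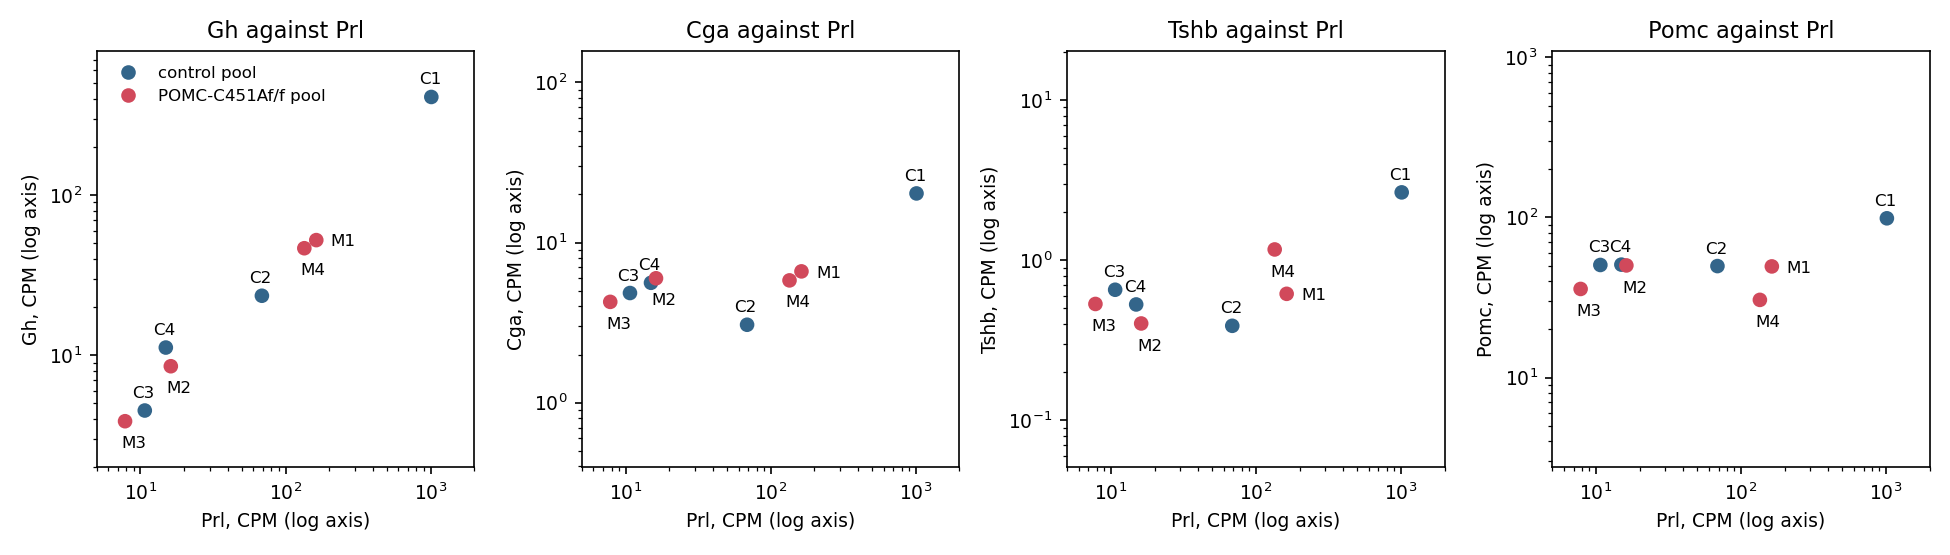
Gh, Cga, Tshb and Pomc against Prl in the 8 pools, both axes in CPM on a log scale of equal span per panel; C and M with a number are the control and POMC-C451Af/f replicates. Gh rises with Prl, at 0.321 to 0.747 CPM per CPM of Prl, except that control replicate 4 and POMC-C451Af/f replicate 2 exchange their order. The other 3 genes are highest in control replicate 1 and vary less over the other pools.

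Ranked by the ratio of CPM + 0.5 in control replicate 1 to that of the highest other pool, 8 of the 10 genes were among the first 20 of 16426. Gh had a ratio of 7.77, Prl 6.2, Fshb 2.99, Cga 2.92, Lhb 2.57, Pou1f1 2.17, Tshb 1.89 and Tbx19 1.49. Pomc, with 1.94, and Lhx3, with 1.56, were the only other genes of the marker lists among these 20. The first 2 places were held by Gm4735 and Eno1b, copies of the enolase gene Eno1, with ratios of 70.4 and 21.1. Gm4735 was at 53.8 CPM in control replicate 1 and at most 0.271 CPM elsewhere, and Eno1b at 63.7 CPM and at most 2.54 CPM. Eno1 itself was lowest in control replicate 1, at 537 CPM against 657 to 725 CPM in the other pools. The transcript of Gm4735 matches Eno1b over 1302 bases at 99.8% identity, and Eno1b matches Eno1 over 1652 bases at 99.5%, so how the counts were divided among these copies is uncertain. Gm10241, with 1.64 CPM in control replicate 1, and Gm21970, with 1.07 CPM, had no count in any other pool, and both share 100% identical stretches with another gene, Sumo2 and Il10rb. None of the 10 pituitary genes shared a stretch of 100 bases at 90% identity with another annotated gene.

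Further genes among the 15 that stood furthest apart outside the lists were Myo15, an unconventional myosin of hair cells, with a ratio of 1.86, and Epcam, an epithelial adhesion molecule, with 1.56. Epcam had 3.77 CPM in control replicate 1 against 1.03 to 2.23 CPM elsewhere. The remaining genes, Isg20, Nhlrc4, Gm7334, Nr5a2, Gm8186, Igha, Misp, Tmem184a and Exoc3l2, had ratios between 1.41 and 1.52. In the likeness of the log2 profile to that of Prl over the 8 pools, Gh came first, with a root mean square difference of 0.39. Outside the lists the nearest genes were Eno1b and Gm4735, both at 1.52, followed by Gm7332 at 1.69, Gm12918 at 1.71, Gm10241 at 1.82, and Gm3373 and Gm4202 at 1.84. Gm21970 and Gm20687 followed at 1.90, and Gnb3 at 1.91. Ghrhr, which did not reach 1 CPM, was not ranked. Among the ranked genes none but Gh came near to the profile of Prl by this measure. Genes at low level could not come near to it, since the added 0.5 CPM narrows their span, so nothing is read from their distance. Of the 10 nearest outside the lists all but Gnb3 share sequence with another gene.

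**Figure D3:**
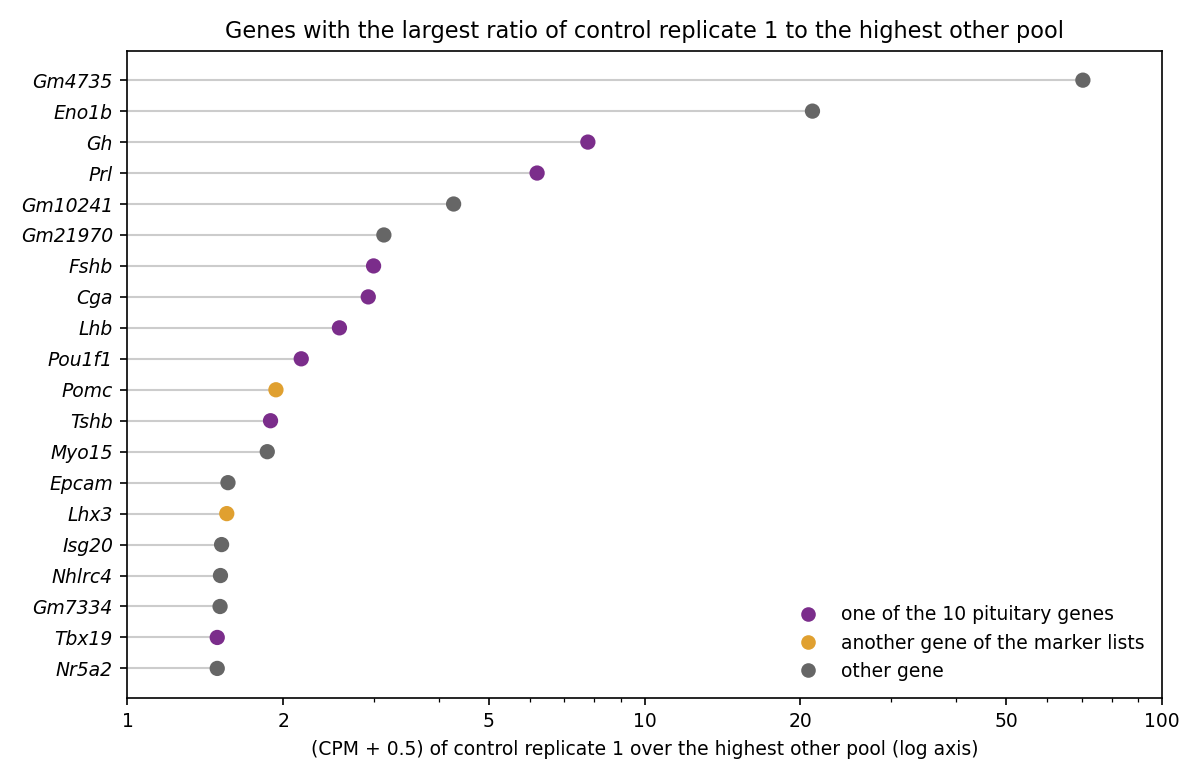
The 20 genes with the largest ratio of CPM + 0.5 in control replicate 1 to that of the highest other pool, among 16426 genes, on a log axis; each point is 1 gene. The pituitary genes run from Gh at 7.77 to Tbx19 at 1.49, and 2 enolase copies lie above them at 70.4 and 21.1.

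The comparison of genotypes asks which genes of the hypothalamus differ between POMC-C451Af/f and control mice. No pituitary gene was called by edgeR with or without control replicate 1. The sign of the log2 fold change of the tested pituitary genes depended on that pool. With all 8 pools, 6 of the 10 genes passed the filter on low counts, namely Prl, Gh, Cga, Tshb, Tbx19 and Pitx1, and all 6 had a lower mean in POMC-C451Af/f mice. The log2 fold change was -1.78 (standard error 1.34) for Prl, -2.0 (1.25) for Gh, -0.57 (0.49) for Cga, -0.63 (0.59) for Tshb, -0.28 (0.26) for Tbx19 and -0.14 (0.37) for Pitx1. None of the 6 was called by edgeR at a false discovery rate of 0.05 and an absolute log2 fold change over 0.5 (adjusted p from 0.878 to 0.966), and 0 of them had an unadjusted p under 0.05. DESeq2 also called 0 of the 10, of which 9 received a p-value, and none of these was under 0.05. The background in the edgeR test was 0.0215% of 18637 genes called and 5.1% with an unadjusted p under 0.05. The groups overlapped for all 6 genes, where 2.79% of all tested genes had groups without overlap.

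Without control replicate 1, all 6 log2 fold changes were above 0. They were 1.35 (standard error 0.97) for Prl, 1.1 (0.80) for Gh, 0.33 (0.21) for Cga, 0.36 (0.37) for Tshb, 0.01 (0.21) for Tbx19 and 0.26 (0.31) for Pitx1, again with none called by edgeR (adjusted p of 1 for each). In this fit 0.0212% of 18868 genes were called and 3.37% had an unadjusted p under 0.05. The median over the 6 genes moved from -0.60 to 0.35, while that over all tested genes was 0.00 in both fits. The sign of these log2 fold changes thus depended on 1 pool of 2 control animals. The genes were chosen with their high levels in that pool known. A rise of their values on its removal was therefore fixed in advance, and nothing is read from the shift. Without this pool the positive values of Prl and Gh rested on POMC-C451Af/f replicates 1 and 4. POMC-C451Af/f replicates 2 and 3 lay within the range of the other controls for Prl or below it. Pitx1 also changed its sign, to 0.06, without POMC-C451Af/f replicate 4. Pomc had a log2 fold change of -0.59 (0.24) with all pools and -0.28 (0.15) without control replicate 1, and was not called by edgeR in either fit (adjusted p of 0.878 and 1). Its unadjusted p was under 0.05 with all pools in edgeR but not in DESeq2, and was not under it in edgeR without control replicate 1.

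Across all genes the edgeR calls did not depend on this pool. DESeq2 was not fitted without it. With all pools edgeR called 4 genes, named here after their values were seen: Efr3b (log2 fold change 1.02), Myo7a (-0.72), Mrpl48-ps (9.58) and Gm44675 (4.80). The same 4 genes were called without control replicate 1, with values of 1.0, -0.69, 9.58 and 4.44. None of them is in the pituitary lists. The number of genes with an unadjusted p under 0.05 was 950 with all pools and 635 without control replicate 1.

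**Figure D4:**
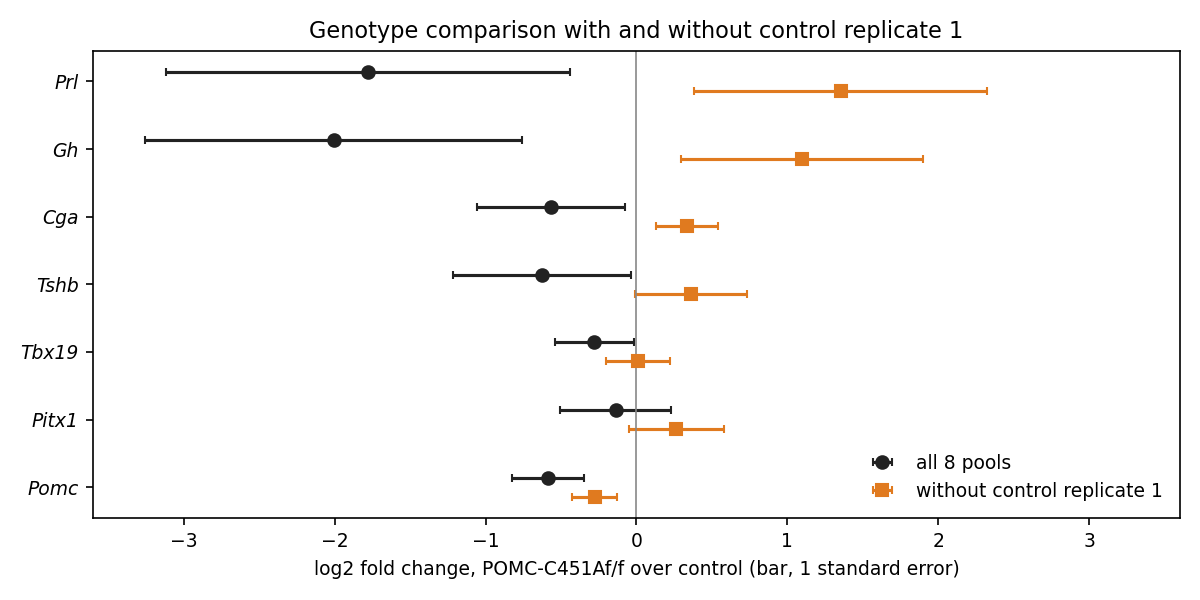
Log2 fold change of POMC-C451Af/f over control for the 6 tested pituitary genes and Pomc, with all 8 pools (black circles) and without control replicate 1 (orange squares); bars are 1 standard error of the edgeR fit. Prl moves from -1.78 to 1.35 and Gh from -2.0 to 1.1, and Pomc stays below 0.

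The hypothalamic side of the pituitary axis was examined in the same pools with lists of genes. Over 17 lists with 85 different genes, 76 were tested, edgeR called 0, 16 had an unadjusted p under 0.05, and DESeq2 called 0. Over all genes such a p was given to 5.1% of 18637 by edgeR and to 906 of 32195 by DESeq2, and since the lists were made with earlier results known, nothing is read from the difference. Among 9 releasing factor genes, 8 were tested, 2 had a positive and 6 a negative log2 fold change, and the median was -0.19 (-0.16 without control replicate 1). Trh, the thyrotropin-releasing hormone gene, was at 94.0, 86.2, 89.7 and 88.5 CPM in controls and 74.7, 82.6, 65.6 and 81.9 CPM in POMC-C451Af/f mice, so that the groups did not overlap, as for 2.79% of all tested genes. Its log2 fold change of -0.23 (0.07) was not called by edgeR (adjusted p = 0.878). The value without control replicate 1 was -0.21. Ghrh, which drives growth hormone release, had 6.25 CPM in control replicate 1 against 3.33 to 6.12 CPM elsewhere. Sst, which restrains it, had 149 CPM there against 89.7 to 146 CPM. Th, the enzyme for dopamine, the inhibitor of prolactin release, was at 47.0, 42.0, 50.9 and 51.1 CPM in controls and 60.2, 55.3, 90.8 and 73.0 CPM in POMC-C451Af/f mice, again without overlap. Its log2 fold change was 0.55 (0.14), not called by edgeR (adjusted p = 0.878), whereas the comparison published with the study lists Th as differentially expressed. Oxt and Avp, the most abundant of these genes, were highest in control replicate 1 with 271 and 261 CPM.

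Of 8 receptor genes for releasing factors, 5 were tested, with 2 positive and 3 negative log2 fold changes and a median of -0.05 (0.00 without control replicate 1). edgeR called 0 of them and found 0 with an unadjusted p under 0.05, and DESeq2 called 0 and found 1. Drd2, the dopamine receptor through which prolactin release is inhibited, was the most abundant, with 19.2 CPM in control replicate 1, inside the 16.8 to 25.5 CPM of the rest. Trhr, Sstr2 and Crhr1 were between 9.40 and 14.6 CPM in all pools. These receptors are also expressed by neurons, and only Ghrhr, Gnrhr and Sstr5 of the list were highest in control replicate 1. The 10 feedback receptors and targets had 6 positive and 4 negative log2 fold changes and a median of 0.06 (0.04 without control replicate 1). edgeR called 0 of these and gave 3, Esr1, Thrb and Socs2, an unadjusted p under 0.05, where 5.1% of all tested genes had one. DESeq2 called 0 and also gave 3. Prlr, the prolactin receptor, was between 22.7 and 27.6 CPM, Ghr between 19.1 and 25.7 CPM, and Nr3c1 between 70.7 and 89.2 CPM. Cish, a target of prolactin and growth hormone signaling, had 9.77 CPM in control replicate 1 against 8.05 to 10.1 CPM elsewhere, so it did not stand out in the pool with the highest Prl and Gh.

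Markers of other tissues were summed for each pool. The 8 hypothalamus genes, led by Pmch, were present in all pools and had their highest sum, 1417 CPM, in control replicate 1, against 708 to 1224 CPM elsewhere. Pmch was at 630 CPM and Hcrt at 183 CPM in that pool, the highest levels of both genes. Of this list 8 were tested, 1 was positive and 7 negative, the median was -0.21 (-0.13 without control replicate 1), and edgeR and DESeq2 called 0 with 0 at an unadjusted p under 0.05. The 7 midbrain dopaminergic genes, led by Th, summed to 120, 101, 135 and 156 CPM in controls and to 182, 137, 292 and 216 CPM in POMC-C451Af/f mice. All 7 were higher in POMC-C451Af/f mice with a median of 0.55 (0.54 without control replicate 1). edgeR called 0 of them and gave 6 an unadjusted p under 0.05, where 5.1% of all tested genes had one, and DESeq2 called 0 and also gave 6. The order of the pools in this list differed from that in Prl, since POMC-C451Af/f replicate 3 had the highest midbrain sum and the lowest Prl. The borders of the dissected tissue are not given in the sources used here, and their part in these levels was not tested.

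The 5 tanycyte and pituicyte genes, led by Col25a1, summed to 143 CPM in control replicate 1 and to between 131 and 156 CPM elsewhere. Their median was 0.00 (0.13 without control replicate 1), and edgeR called 0 and gave 2, Col25a1 and Gpr50, an unadjusted p under 0.05, against 5.1% of all tested genes. Without control replicate 1 it gave 1, against 3.37% of all tested genes in that fit, and DESeq2 with all pools called 0 and gave 2. The 6 choroid plexus genes, led by Clic6, summed to 40.4 CPM in control replicate 1 and to between 31.8 and 35.4 CPM elsewhere, with a median of -0.04 (-0.02 without that pool). The 4 genes of the meninges, led by Dcn, summed to 53.6 CPM in control replicate 1, and 2 other pools were alike, control replicate 3 with 56.2 CPM and POMC-C451Af/f replicate 2 with 54.4 CPM. Their median was -0.10, with all 4 genes negative, and turned to 0.02 without control replicate 1, with 3 positive. The 7 interferon response genes, led by Ifit3, summed to 36.8 CPM in control replicate 1 and 43.5 CPM in POMC-C451Af/f replicate 2, with 21.9 to 28.7 CPM in the others and a median of 0.17. Without control replicate 1 it was 0.31, with all 7 genes positive. With all pools, edgeR and DESeq2 called 0 in each of these last 3 lists and gave 0 an unadjusted p under 0.05. Without control replicate 1, edgeR called 0. In that fit it gave such a p to 1 gene of the choroid plexus, 0 of the meninges and 1 of the interferon response. The share over all tested genes was 3.37%. The 3 red blood cell genes, led by Hbb-bs, summed to 198 CPM in control replicate 1 and were highest in POMC-C451Af/f replicate 3 with 426 CPM. All 3 were tested and positive with a median of 0.75 (0.93 without control replicate 1). Of these, 2 had an unadjusted p under 0.05 in edgeR and in DESeq2, against 5.1% of all tested genes in edgeR, and 0 were called by either. Without control replicate 1 the edgeR number was 3, against 3.37% of all tested genes in that fit. The part of blood, meninges or dissection in the level of the pituitary genes was not tested.

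**Figure D5:**
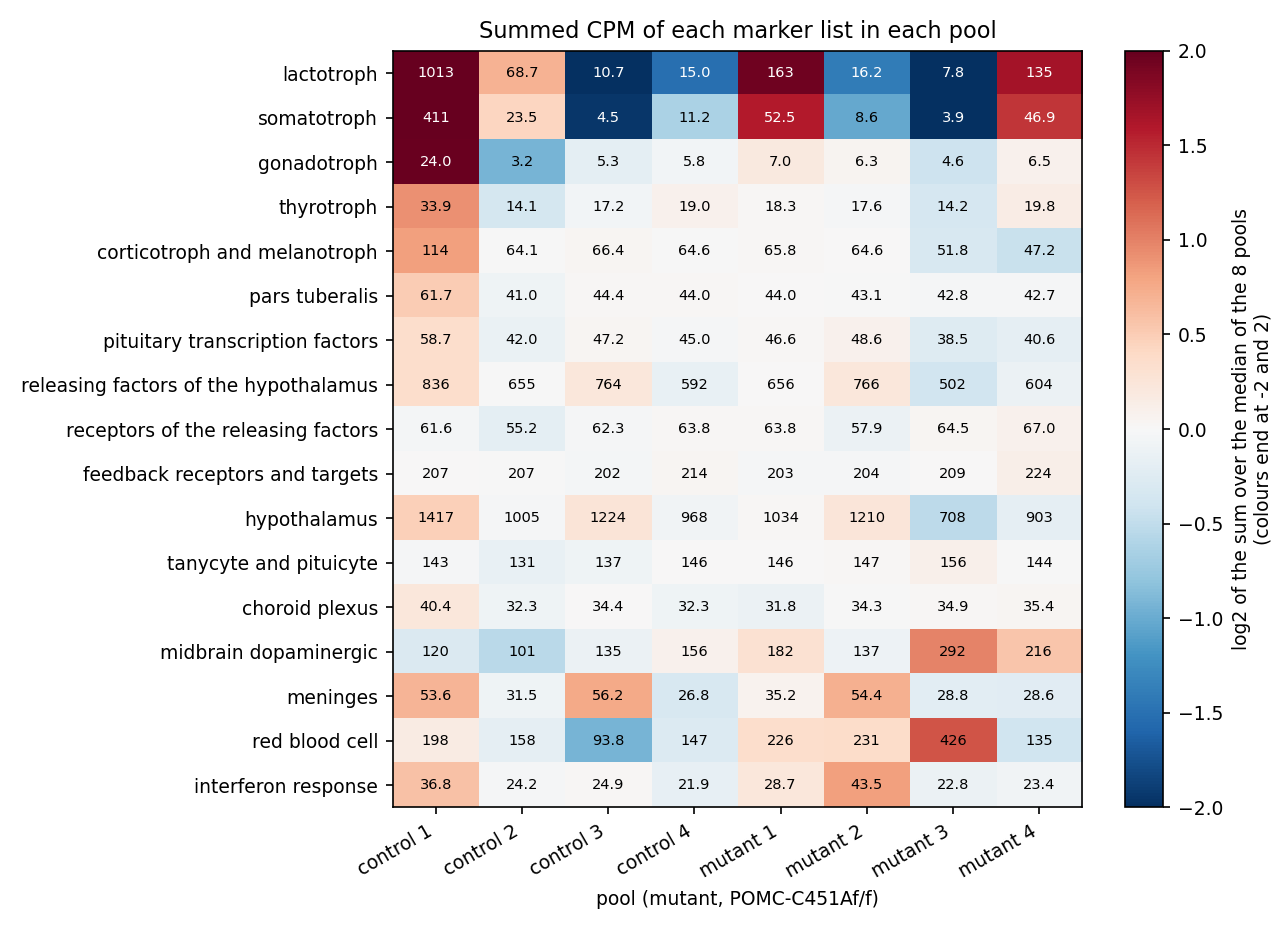
Summed CPM of each of 17 marker lists in each pool, printed in the cells; colours give the log2 of the sum over the median of the 8 pools, from -2 (blue) to 2 (red). The lactotroph and somatotroph sums of control replicate 1, 1013 and 411 CPM, are the highest of their lists, and the lists of receptors and of feedback targets hardly vary.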

How the data were processed

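Hypothalamic poly(A) RNA of 8 pools was sequenced by the authors as paired-end reads from a stranded mRNA kit. According to the submitters' processing notes and the study's methods, the authors quantified reads with Salmon 1.10 against a GENCODE transcriptome of GRCm39 and summed them to genes. The deposited values are estimated counts per gene, not normalized. They were rounded to whole numbers here. A deposited table of the authors' own DESeq2 comparison, with fold changes and p-values, was not used.

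Gene names, positions and exon lengths were taken from GENCODE M21 on GRCm38, an earlier build, by identifier (51424 of 55890 matched). CPM were scaled with TMM factors. Genotypes were compared with edgeR 4.0.16 (quasi-likelihood test, filterByExpr with a minimum count of 10, Benjamini-Hochberg adjustment over 18637 genes) in R 4.3.3, and with DESeq2 1.42.0 as an alternative. The edgeR step was tested on simulated data. Standard errors of log2 fold changes are the absolute value over the square root of F. A count of 3 in a pool was taken as the floor. Log2 ratios between pools used a prior of 0.5 CPM. The settings tried were another tool, other scalings, other filters, a replicate block, each pool left out in turn, another prior and other reference pools. No 2 pools agreed within counting noise.

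The text names the 10 genes, Pomc, up to 4 most abundant genes of each list with any at the floor in every pool, the 15 genes furthest apart in control replicate 1 and the 10 nearest to the profile of Prl. Other list genes in the text, and Eno1, were named after their values were seen. The genes and lists were chosen with earlier results of these data known. Shared sequence was searched with blastn 2.17.0 in GENCODE M21 transcripts.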

Additional observations from a re-analysis of the deposited data

Results flagged for a closer look

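A pool that lay far from the other 3 of its genotype, by a gap above 0.83 of the whole range, was looked for in 56 groups of 4 pools. It was found in 14, where chance gives about 1 in 20 groups, or 2.8. The groups are not independent, since the lists hold the same genes and 13 of the 14 concern the same pool. The genes were also chosen with the high values of that pool known, so nothing is read from the number found against chance. Control replicate 1 lay above the other controls for Prl at 1013 CPM (others 10.7 to 68.7), Gh at 410 CPM (4.52 to 23.5) and Cga at 20.3 CPM (3.07 to 5.61). The same held for Fshb at 1.66 CPM, Tshb at 2.65 CPM, Pou1f1 at 1.07 CPM, Ghrhr at 0.893 CPM (others 0 to 0.0794) and Pomc at 98.8 CPM (49.7 to 50.8). In summed CPM, the pool stood apart for the lactotroph list at 1013, the somatotroph list at 411 and the gonadotroph list at 24.0. It also did for the corticotroph and melanotroph list at 114 and the pars tuberalis list at 61.7. Crhr1 and Avpr1b of the former list and Eya3 and Mtnr1a of the latter were not highest in that pool. The other genes of both lists were. Lhb, Tbx19 and Pitx1 were highest in control replicate 1 as well, with smaller gaps. The remaining case was Tbx19 in POMC-C451Af/f replicate 3, at 0.870 CPM below the 1.34 to 1.43 CPM of the other 3 pools. The source of these differences was not tested.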

How the results depend on the processing

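The number of genes called was 4 with all pools and between 4 and 5 with each pool left out in turn. It was 13 with DESeq2, 2 with at least 10 counts required in every pool and 2 with the replicate block, and between 4 and 5 with other scalings or no filter. With the stricter filter fewer genes were tested (17428), and the cause of the other shifts was not tested. The number of pituitary genes called was 0 in all 15 fits. The replicate numbers did not pair the pools, since same-numbered pools deviated together with correlations of 0.14, -0.18, -0.11 and 0.24. With the replicate block Prl was at -0.80 and Gh at -0.83, and no pituitary gene was called. Over the fits that each lacked 1 pool, log2 fold changes ranged from -2.40 to 1.35 for Prl, -2.52 to 1.1 for Gh, -0.85 to 0.33 for Cga, -1.01 to 0.36 for Tshb, -0.42 to 0.0104 for Tbx19, -0.39 to 0.26 for Pitx1 and -0.69 to -0.28 for Pomc. All values above 0 came without control replicate 1, apart from Pitx1 at 0.06 without POMC-C451Af/f replicate 4. The log2 ratio of control replicate 1 to the other controls was 4.99 for Prl and 4.92 for Gh and stayed above 0 for all 11 genes under other scalings, a prior of 0.1 CPM and all 7 other pools as the reference. The prior moved the ratios of the low genes, from 1.79 to 2.98 for Fshb and from 1.4 to 2.97 for Ghrhr. Depth limits Lhb, Fshb, Pou1f1 and Ghrhr, whose counts were 15 or fewer outside control replicate 1.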
